A study of Mus musculus with 30 samples.

Results

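Mouse embryonic stem (ES) cells that lack Jarid2 were followed from day 2 to day 4 after LIF, the cytokine that keeps such cells undifferentiated, was withdrawn. The members of this comparison are 10 of the 30 arrays of the series, 5 of null cells at day 2 and 5 of null cells at day 4, chosen by the labels' genotype and day. The labels call the null cells Jmj (-/-) mutants, where Jmj (Jumonji) is the former name of Jarid2. The control cells of the same days, with 2 arrays each, are labelled Jmj (fl/fl), carry floxed alleles and count as wild type in the labels. Both genotypes were grown in standard ES culture and both had been without LIF for the same time, so no array at day 2 or day 4 stands for cells in LIF. The labels do not say how the null line was derived, whether it is 1 clone, or whether feeder cells were present.

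Jarid2 is a DNA-binding partner of Polycomb repressive complex PRC2, which places a repressive methyl mark on histone H3 at silent developmental genes. ES cells that leave the LIF state first lose the genes of naive pluripotency, pass through a formative and primed epiblast state marked by Fgf5, Otx2 and Pou3f1, and then, under Nodal, Wnt and BMP signals, switch on primitive streak genes such as Mixl1, Eomes and Gsc, from which mesoderm and endoderm arise. In the embryo, Nodal and Wnt act in a loop with their targets and with secreted inhibitors. The comparison asks which of these steps the null cells take in the interval in which Mixl1 is still silent.

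Values are probe set intensities given for replicates 1 to 5 in that order. A change is the difference of group means of log2(intensity + 4) with its standard error (SE), and a fold is 2 raised to it, so genes close to the floor changed by more than the printed fold. A gene "rose" or "fell" where limma's moderated test, adjusted over 18194 genes by Benjamini-Hochberg, gave an adjusted p under 0.05. A "blocked" adjusted p comes from a fit with the replicate number as a block and is printed where it changes the call. Fits with a block used only the arrays of the groups compared. A changed call thus mixes the block with fewer arrays and another spread. Equal replicate numbers may not pair arrays of the days. Replicates 1 and 2 of day 2 correlated more closely with the other number of day 4 than with their own. These arrays measure RNA of whole cultures, so fewer cells of a type and less RNA per cell cannot be told apart.

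The null arrays were not alike within a day. Eif2s3y, a gene on the Y chromosome, read 16, 290, 626, 710 and 696 at day 2 and 218, 12, 690, 850 and 783 at day 4. Replicates 3 to 5 of both days thus had a high level, day 2 replicate 2 and day 4 replicate 1 a middle one, and day 2 replicate 1 and day 4 replicate 2 a level near the floor. The actin control probe sets, whose 3' to 5' ratio goes up with RNA breakdown, gave 1.296 to 1.385 on replicates 3 to 5 and 1.555 to 1.659 on the remaining 4 arrays. Fl/Fl arrays of these days gave 157 to 193 for Eif2s3y and 1.526 to 1.78 for the ratio. Null arrays of the high set thus differed from Fl/Fl in these readings as well as in genotype. The part of this in differences between genotypes was not tested. These sets were seen in the values and are not groups of the study; changes within a set are given where the sets differed, and the part of the sets in any result was not tested beyond the fits named beside it. The targeted gene itself was read at 2226, 2797, 1754, 1979 and 2016 at day 2 and at 1470, 1383, 1257, 1317 and 1275 at day 4. Every day 4 array thus lay below every day 2 array, a change of -0.67 (SE 0.18, adjusted p = 0.0358), against 1467 and 1789 falling to 709 and 710 in Fl/Fl. The adjusted p of Jarid2 was 0.0559 after quantile normalization and 0.0512 to 0.106 when any single null array but day 2 replicate 3 was left out. No source used here places its probe sets relative to the deletion, so this level does not check the genotype.

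Primitive streak genes such as Mixl1 stayed at the floor in null cells at day 4, while 2 genes of the same list rose. Control cells had switched on Mixl1, Lhx1 and Gsc by then. Mixl1, a homeobox gene of the streak, read 5 on all 5 null arrays at day 2 and 6, 27, 5, 5 and 6 at day 4. Only day 4 replicate 2, one of the arrays with little Eif2s3y, lay above the others, and the change of 0.42 (SE 0.605, adjusted p = 0.861) did not pass. In Fl/Fl, Mixl1 went from 5 and 5 to 1964 and 2110, and in null cells it reached 2701 ± 1499.5 (SD, n = 5) at day 6. Mesp1, a gene of early mesoderm, read 5 on all 10 null arrays, and Lhx1, a homeobox gene of the organizer region, read 7 on all of them. Gsc, another organizer gene, read 6 or 7 at day 2 and 6, 9, 6, 6 and 6 at day 4. These floor values overlapped between the days, whereas the Fl/Fl day 4 arrays read 292 and 443 for Lhx1 and 98 and 126 for Gsc. Mesp1 was near the floor in Fl/Fl as well, at 6 and 15 on day 4. The gene T (brachyury) was not analysed here.

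Eomes, a T-box transcription factor of the streak and of trophoblast, was the early exception. It read 48, 57, 63, 55 and 68 at day 2 and 464, 755, 305, 220 and 198 at day 4, so that no day 4 array overlapped the day 2 arrays. The change was 2.49 (SE 0.559, 5.6-fold, adjusted p = 0.0103; blocked adjusted p = 0.0631). The day 4 arrays with less Eif2s3y were the highest, the change being 1.87 in the high set, 2.94 in the middle set and 3.87 in the low set. Fl/Fl Eomes went from 87 and 110 to 1216 and 1094, a change of 3.51, and the difference between the genotypes did not pass (-1.02, SE 1.05, adjusted p = 0.961). Fgf8, a growth factor of the streak, read 5, 4, 5, 6 and 5 at day 2 and 36, 62, 12, 12 and 12 at day 4. All its day 4 arrays were above all day 2 arrays, yet the change of 1.51 (SE 0.477) did not pass (adjusted p = 0.0872). Wnt3, the ligand that acts upstream of the streak, read 40 to 42 at day 2 and 40, 37, 85, 53 and 47 at day 4 (change 0.27, adjusted p = 0.857), against 142 and 179 in Fl/Fl at day 4.

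Sp5, a transcription factor gene known as a direct target of Wnt signalling, was the second streak-list gene that rose. It read 5, 5, 7, 5 and 5 at day 2 and 7, 37, 93, 61 and 83 at day 4. Day 4 replicate 1 stayed at the level of day 2 and the other day 4 arrays lay above it. The change was 2.35 (SE 0.428, adjusted p = 0.0017; blocked adjusted p = 0.126; 0.0595 in a fit of only the groups compared). It was 1.56 with a pseudocount of 16. Its stretch upstream of the start, from RefSeq on GRCm38.p6, is shown because it holds a TCF/LEF site, the letters through which Wnt signalling is read. The 250 bases before the first listed start (chr2:70474673-70474922, plus strand) are printed 5′ to 3′ with the site in capitals. It lies 104 bases before the start, on the reverse strand of ATCAAAG.
Sp5: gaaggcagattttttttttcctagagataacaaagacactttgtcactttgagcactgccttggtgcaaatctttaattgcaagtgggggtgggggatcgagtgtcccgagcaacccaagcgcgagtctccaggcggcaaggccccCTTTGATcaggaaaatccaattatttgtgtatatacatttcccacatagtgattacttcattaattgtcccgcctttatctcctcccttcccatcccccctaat
Of 14368 mouse promoters of that length, 2.68% hold ATCAAAG on either strand. Among the named genes with a promoter listed, ATCAAAG also stands upstream of Phc1, which fell, and of Mesp1 and Ugt8a, which did not pass. Axin2, Wls and Lef1 of the Wnt list have no such match. The match in Sp5 is a description of these letters and not evidence of binding. Of the 34 measured genes in the list of primitive streak and nascent mesoderm genes, 2 rose and 0 fell (2 rose when each array in turn was left out, and 0 with the replicate block), beside 2.25% of all genes that rose, and the median change of the list was 0.0 in null and 0.61 in Fl/Fl.

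**Figure D1:**
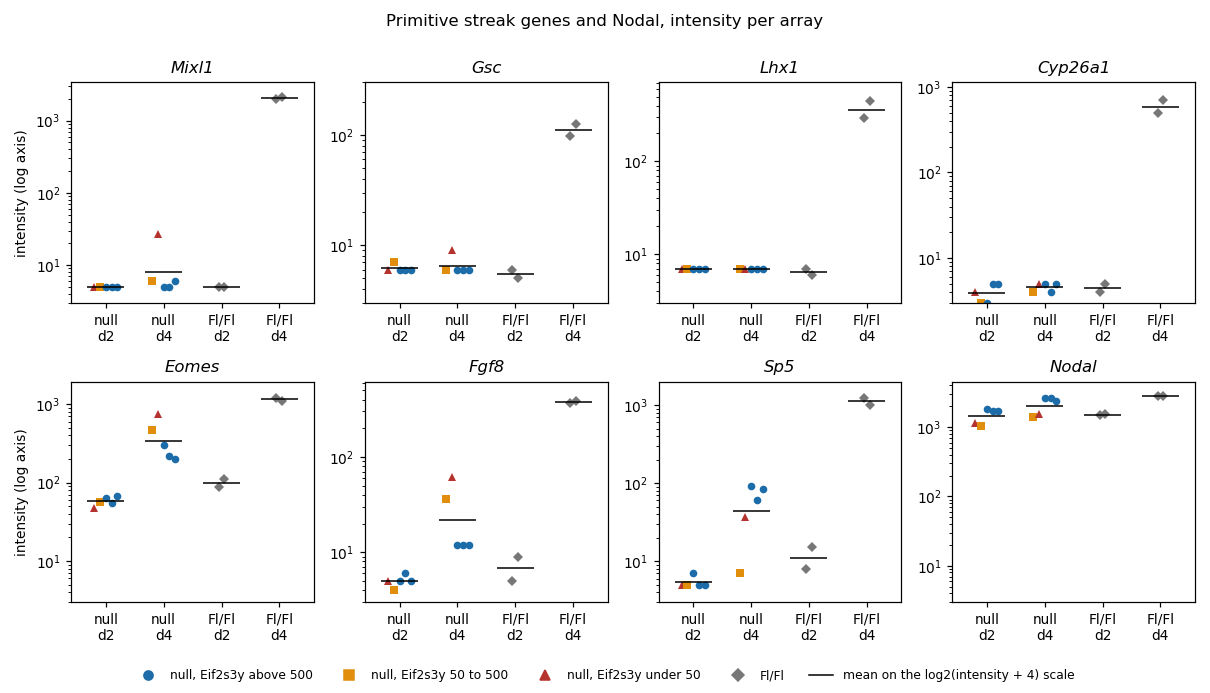
Intensity on a log axis of streak genes and Nodal on each array of null and Fl/Fl cells at day 2 (d2) and day 4 (d4); symbols mark genotype and, for null arrays, the level of Eif2s3y, and lines mark the mean on the log2(intensity + 4) scale. Mixl1 is at 5 to 27 on the null day 4 arrays against 1964 and 2110 in Fl/Fl, while Eomes is at 198 to 755 on the null day 4 arrays, above all null day 2 arrays.

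In this interval, with Mixl1 still near the floor, 792 of 18194 genes (4.35%) changed in null cells, 410 upward (2.25%) and 382 downward (2.1%). Of these, 312 changed at least 2-fold, 196 upward and 116 downward. For 620 of the 792, the 5 arrays of day 4 did not overlap the 5 arrays of day 2, beside 5.95% of all genes without overlap. With the replicate block, 366 genes passed, 217 upward and 149 downward, and 254 of the 792 were among them. A fit of the same arrays without the block gave 695. The 410 genes that rose had a median change of 0.88 in the high set, 0.92 in the middle set and 1.08 in the low set. In Fl/Fl over the same days the median of these genes was 1.15, and 387 of them moved up there too. The 382 genes that fell had medians of -0.64, -0.78 and -0.69 in the 3 sets and -0.76 in Fl/Fl, where 351 moved down. The shares of 2.25% and 2.1% are the background for every list count below. A count of 1 or 2 genes says little about a list.

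Of the 10 largest rises without overlap, Dsp, Krt19 and Ahnak belong to the list of keratins, desmosomes and tight junctions, and Fst, Ghr, Mme, Card10, Actc1, Wls and Anxa3 do not. Absence of overlap was a condition for choosing these 10 genes and is no further evidence for them. Of 25 measured genes for keratins, desmosomes and tight junctions, 7 rose and 0 fell, beside 2.25% and 2.1% of all genes: Dsp, Krt19, Krt8, Krt18, Ahnak, Cldn7 and Dsg2. The list's median change was 0.54, beside -0.02 over all genes, and 1.31 in Fl/Fl. The count stayed at 7 with the replicate block and was 11 with the Eif2s3y set as a block. Dsp encodes desmoplakin, which ties keratin filaments to desmosomes. It read 50, 27, 13, 18 and 10 at day 2 and 232, 559, 310, 161 and 192 at day 4. The day 4 arrays all lay above the day 2 arrays, by 3.45 (SE 0.37, 10.9-fold, adjusted p = 5.75e-06), close to the 3.48 of Fl/Fl. Krt19, a keratin of simple epithelia, read 44, 24, 9, 28 and 13 and then 230, 343, 314, 175 and 185. Again no array overlapped, and the change was 3.3 (SE 0.278, adjusted p = 2.7e-07) against 4.41 in Fl/Fl.

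Krt8 and Krt18, which pair in the same filaments, rose from a higher level. Krt8 read 371, 254, 237, 125 and 112 at day 2 and 1223, 2029, 1262, 988 and 805 at day 4 (2.57, SE 0.328, adjusted p = 4.04e-05). Krt18 read 716, 696, 505, 438 and 405 and then 2440, 2731, 1248, 926 and 888 (1.45, SE 0.299, adjusted p = 0.005, or 0.0751 in a fit of only the groups compared). Both were free of overlap, and in both the day 4 array with the least Eif2s3y was the highest. Ahnak, a large protein under the cell membrane, read 108, 62, 201, 92 and 93 and then 489, 1049, 1638, 855 and 1003. All day 4 arrays were above all day 2 arrays (3.13, SE 0.34, adjusted p = 6.04e-06), although the mean over its probe sets gave 0.79, and that over the probe sets of Dsp gave 2.25. Cldn7, a claudin of tight junctions, and Dsg2, a desmosomal cadherin, are named because they complete the count. Their mean intensities went from 665.2 ± 113.5 to 1477.2 ± 471.9 (SD, n = 5; adjusted p = 0.000371) and from 153.8 ± 49.7 to 352.4 ± 109.5 (adjusted p = 0.0126). The desmosomal cadherin Dsc2, chosen after its values were seen, read 22.4 ± 4.3 and 25.6 ± 6.5 in null against 41.5 ± 0.7 and 290.5 ± 43.1 (n = 2) in Fl/Fl, and its change differed between the genotypes by -2.53 (SE 0.442, adjusted p = 0.00393).

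For several of these genes the null cells at day 4 stood near where Fl/Fl cells stood at day 2. The genotypes already differed at day 0. Day 0 means were 48.7 in null and 547.0 in Fl/Fl for Dsp, and 59.0 and 372.5 for Krt19. They were 265.7 and 1032.0 for Ahnak, and 307.7 and 2696.5 for Krt8. Fl/Fl day 2 arrays read 473 and 386 for Dsp, 168 and 176 for Krt19, 996 and 821 for Ahnak and 2221 and 2169 for Krt8. The null day 4 arrays held these values within their range for Dsp and Ahnak, spanned 175 to 343 for Krt19, and stayed below them for Krt8. The Fl/Fl day 4 arrays were far above, at 4916 and 4693 for Dsp and 3709 and 3758 for Krt19. In null cells Dsp then reached 2375.6 ± 905.2 (SD, n = 5) and Krt19 3043.4 ± 795.6 at day 6. The trophoblast list held 4 genes that rose of 21 measured and 1 that fell, Tfap2c, beside 2.25% and 2.1% of all genes. Those that rose, Krt8, Krt18, Krt19 and Eomes, stand in other lists as well. The defining trophoblast genes Cdx2, Elf5 and Gata3 were at 10 or 11, at 5 and at 6 on every null array of both days.

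In the list of fibroblast and feeder cell genes, 4 of 31 measured rose and 0 fell (median 0.0), beside 2.25% and 2.1% of all genes. Tagln, the actin-binding protein transgelin, read 1272, 662, 978, 513 and 615 at day 2 and 4798, 6302, 3646, 3087 and 2732 at day 4. Its arrays did not overlap (2.35, SE 0.264, 5.11-fold, adjusted p = 9.13e-06), and Fl/Fl changed by 1.68. Cnn1, calponin, read 187, 114, 75, 74 and 46 and then 728, 780, 415, 271 and 277 (2.28, SE 0.415, adjusted p = 0.00169). Thbs1, the matrix protein thrombospondin, read 146, 131, 132, 27 and 65 and then 211, 481, 709, 679 and 660. All day 4 arrays of both genes exceeded the day 2 arrays. Thbs1 rose by 2.5 (SE 0.572, adjusted p = 0.0117; blocked adjusted p = 0.159; 0.0518 with the Eif2s3y set as a block), by 3.37 in the high set and by 0.67 in the middle set. These 3 genes and Ccn1 were the 4 that rose. The defining fibroblast collagens did not move with them: Col1a1 read 19 to 39 at day 2 and 10 to 35 at day 4, Col1a2 13 to 23 and 9 to 17, Col3a1 9 or 10 and 8 or 9, and Postn 8 or 9 on both days. Thy1 read 6 to 11 and 8 to 13. The summed intensity of the list was 5546 to 7452 at day 2 and 11938 to 16426 at day 4.

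Actc1, cardiac alpha actin, and Ccn1, a secreted matrix protein known as a target of the YAP and TEAD factors, also rose. Actc1 read 16, 16, 7, 14 and 12 at day 2 and 169, 375, 57, 66 and 48 at day 4. The arrays did not overlap, and the day 4 arrays with less Eif2s3y were the highest (2.7, SE 0.388, adjusted p = 0.000155; blocked adjusted p = 0.0692). Ccn1 read 665, 325, 557, 292 and 336 and then 2002, 2601, 1937, 1448 and 1345, again without overlap (2.13, SE 0.266, adjusted p = 3.14e-05). Both upstream stretches are shown, from RefSeq on GRCm38.p6, because they hold letters known to bind factors that respond to actin: a CArG box, read by the serum response factor, 47 bases before the start of Actc1 (chr2:114052876-114053125, minus strand), and CATTCC, read by TEAD factors, 103 bases before the start of Ccn1 (chr3:145649986-145650235, minus strand). The matches are in capitals.
Actc1: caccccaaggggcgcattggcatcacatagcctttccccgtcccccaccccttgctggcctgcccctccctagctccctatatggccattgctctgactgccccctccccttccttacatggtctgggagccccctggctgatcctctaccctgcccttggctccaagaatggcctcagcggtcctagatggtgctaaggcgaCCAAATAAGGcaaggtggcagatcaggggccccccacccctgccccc
Ccn1: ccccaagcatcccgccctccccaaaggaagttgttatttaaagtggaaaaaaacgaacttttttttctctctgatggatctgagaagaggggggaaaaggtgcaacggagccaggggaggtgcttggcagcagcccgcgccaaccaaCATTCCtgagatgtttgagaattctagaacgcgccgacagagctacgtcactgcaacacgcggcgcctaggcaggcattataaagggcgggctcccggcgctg
Of the 14368 promoters of that length, 1.22% hold a CArG box and 11.4% hold CATTCC on either strand, and these motifs were added after the rises were seen. Promoters were listed for 113 of the 151 named genes, and Tagln was not among these. Within the 113, CATTCC also stands upstream of Ahnak, Id3, Aldh1a1, Dll3 and Zfp42. Zfp42 fell, and Aldh1a1 and Dll3 did not pass. A CArG box also stands upstream of Nkx2-2, Mesp1 and Cited1, of which Mesp1 and Cited1 did not pass. Cnn1, Axin2 and Krt8 have neither. Of 28 measured genes of cardiac and vascular mesoderm, Actc1 alone rose and Pecam1 alone fell, beside 2.25% and 2.1% of all genes. Pecam1 is a surface protein that ES cells also carry. Pecam1 read 12, 65, 12, 33 and 35 and then 4, 4, 7, 4 and 7 (-1.74, SE 0.307, adjusted p = 0.00131; blocked adjusted p = 0.154; 0.0587 in a fit of only the groups compared). The change was -1.05 with a pseudocount of 16, and all 5 day 4 arrays lay below the day 2 arrays.

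**Figure D2:**
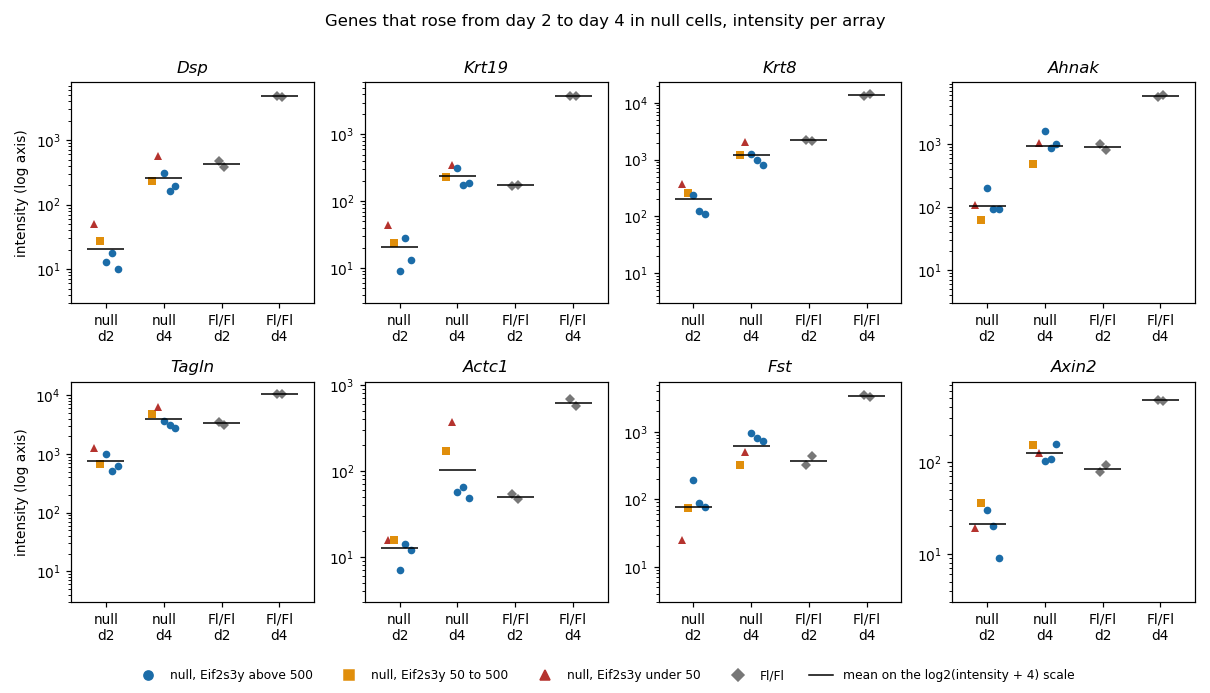
Intensity on a log axis of 8 genes that rose, per array, with symbols and lines as in the plot of streak genes. For Dsp, Krt19, Krt8, Ahnak, Tagln, Actc1, Fst and Axin2 every null day 4 array lies above every null day 2 array, and the Fl/Fl day 4 arrays lie above all null arrays.

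Of 37 measured Wnt signalling genes, 5 rose and 1 fell, beside 2.25% and 2.1% of all genes, with a median change of 0.07. The secretion factor Wls, the receptors Fzd1 and Fzd2, the feedback gene Axin2 and Sp5 rose, and the transcription factor Lef1 fell. The count that rose was 3 with the replicate block, in a fit of only the groups compared and without null day 2 replicate 1, and 2 among the arrays with high Eif2s3y alone. Wls, which carries Wnt ligands to the surface, read 23, 15, 16, 16 and 16 at day 2 and 90, 161, 157, 110 and 109 at day 4 (2.59, SE 0.268, adjusted p = 3.64e-06). Axin2, a negative regulator that Wnt signalling induces, read 19, 36, 30, 20 and 9 and then 153, 127, 102, 107 and 156 (2.39, SE 0.264, adjusted p = 8.21e-06; blocked adjusted p = 0.058). Neither gene had overlapping arrays, and the rise of Axin2 matched that of Fl/Fl, 2.41, while its level at day 4 was near the 78 and 93 of Fl/Fl at day 2. The mean over all probe sets gave 1.38 for Wls and 1.29 for Axin2, and Axin2 did not pass among the arrays with high Eif2s3y alone (adjusted p = 0.0587). Lef1 read 358, 236, 459, 572 and 612 and then 128, 129, 234, 291 and 241. The lowest day 2 array, 236, lay under 241 and 291 of day 4, and the change of -1.11 (SE 0.274, adjusted p = 0.0201) was lost in a fit of only the groups compared (0.131), with the mean of all probe sets (0.247) and without null day 2 replicate 4 (0.0567) or 5 (0.0695) or null day 4 replicate 1 (0.0647) or 2 (0.0717).

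In the Nodal and activin list 3 of 23 measured genes passed, beside 4.35% of all genes. Nodal, the ligand, read 1149, 1036, 1853, 1693 and 1719 at day 2 and 1397, 1526, 2626, 2655 and 2390 at day 4. The days overlapped across the sets of arrays but not within them, and the change of 0.49 (SE 0.211, adjusted p = 0.244) passed with a blocked adjusted p = 0.0406 and with the Eif2s3y set as a block (0.00264). Fst, follistatin, a secreted inhibitor of activin, read 25, 73, 191, 89 and 78 and then 320, 506, 944, 814 and 741. It rose without overlap by 2.96 (SE 0.561, adjusted p = 0.00234), and Fl/Fl by 3.17. Pmepa1, an inhibitor of SMAD signals that the pathway induces, read 93, 81, 113, 110 and 106 and then 230, 329, 273, 253 and 220 (1.34, SE 0.179, adjusted p = 7.03e-05). Skil, a SMAD co-repressor, fell from 3983 to 4755 down to 2756 to 3118 (-0.55, SE 0.0591, adjusted p = 5.78e-06). These were the 2 rises and the 1 fall of the list (median 0.15). Lefty1, the feedback inhibitor of Nodal, read 973, 831, 764, 991 and 930 and then 608, 700, 417, 479 and 438. Every day 4 array of Lefty1 was lower, but the change of -0.78 (SE 0.301) did not pass (adjusted p = 0.185, or 0.0174 with the Eif2s3y set as a block), and Lefty2 overlapped between the days (-0.31, adjusted p = 0.731).

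In the BMP list Id3 and the receptor Bmpr2 rose among 24 measured genes, and 0 fell, beside 2.25% and 2.1% of all genes. Id3, an inhibitor of basic helix-loop-helix factors and a BMP target, read 142, 170, 116, 123 and 92 at day 2 and 257, 225, 554, 488 and 471 at day 4. No arrays overlapped, and the rise of 1.54 (SE 0.272, adjusted p = 0.00127; blocked adjusted p = 0.147) was 2.16 in the high set against 0.58 in the middle set and 0.65 in the low set. Fl/Fl moved the other way, from 736 and 762 to 343 and 409. Bmpr2 rose by 0.52 (SE 0.146, adjusted p = 0.0442); the call was lost with the mean of all probe sets (0.415), among the arrays with high Eif2s3y (0.13) and without any single null array except day 2 replicate 3 and day 4 replicate 4 (0.0605 to 0.124), which left 1 gene of the list. Id1 read 241, 389, 991, 723 and 690 and then 496, 450, 2652, 1897 and 2096 and did not pass (1.13, SE 0.551, adjusted p = 0.328, or 0.0302 with the Eif2s3y set as a block). Its arrays overlapped between the sets, with both days high in replicates 3 to 5.

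FGF signalling genes split evenly, 2 up and 2 down of 27 measured, beside 2.25% and 2.1% of all genes. Fgf4, the ligand that ES cells make for themselves, read 635, 1030, 655, 817 and 775 at day 2 and 103, 45, 320, 312 and 304 at day 4. It fell on every array by 2.14 on the log2 scale (SE 0.381, adjusted p = 0.00139; blocked adjusted p = 0.19; 0.0744 in a fit of only the groups compared), the change being -1.25 in the high set and -3.7 in the low set. Fgf15 went from 24, 32, 18, 27 and 17 to 18, 12, 8, 16 and 9, where 1 value of day 4 overlapped day 2 (-0.74, SE 0.153, adjusted p = 0.00489; blocked adjusted p = 0.0815; -0.47 with a pseudocount of 16). The Fgf15 call was also lost in a fit of only the groups compared (0.12), with the Eif2s3y set as a block (0.0555) and among the arrays with high Eif2s3y (0.291). Il17rd, an inhibitor of FGF receptors, rose from 286 to 364 up to 462 to 591 (0.79, SE 0.136, adjusted p = 0.000984; blocked adjusted p = 0.0597), and the mean of its probe sets gave 0.5. Phlda1 rose by 1.69 (SE 0.39, adjusted p = 0.0126; blocked adjusted p = 0.153; 0.0708 with the Eif2s3y set as a block), from 26 to 178 up to 231 to 497.

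Of 28 measured naive pluripotency genes, 14 fell, beside 2.1% of all genes, and 1 rose. The median change was -0.87, with -1.04, -1.46 and -1.16 in the sets with high, middle and low Eif2s3y and -1.54 in Fl/Fl. The count that fell was 5 with the replicate block, 9 in a fit of only the groups compared, 9 without null day 2 replicate 5 and 8 without null day 4 replicate 1. Esrrb, an orphan nuclear receptor of the naive network, read 85, 141, 66, 113 and 96 at day 2 and 12, 8, 12, 13 and 15 at day 4. It fell to near the floor on every array (-2.68, SE 0.249, adjusted p = 1.02e-06), as in Fl/Fl (211 and 276 to 12 and 25), and the mean of its probe sets gave -1.07. Nr0b1, the orphan receptor Dax1, read 56, 187, 67, 149 and 120 and then 8, 6, 12, 11 and 17 (-2.93, SE 0.247, adjusted p = 2.7e-07). Gbx2, a homeobox gene that LIF maintains, read 328, 209, 361, 372 and 388 and then 18, 21, 68, 61 and 100 (-2.76, SE 0.335, adjusted p = 2.37e-05). All of these arrays lay below those of day 2, and for Gbx2 day 4 levels were lower in the arrays with less Eif2s3y.

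Dppa3, the maternal factor Stella, read 395, 586, 292, 288 and 293 at day 2 and 44, 9, 74, 58 and 62 at day 4 (-2.98, SE 0.346, adjusted p = 1.42e-05; blocked adjusted p = 0.115). Ooep, an oocyte gene that ES cells also express, read 104, 183, 179, 213 and 237 and then 9, 7, 30, 21 and 46 (-2.99, SE 0.322, adjusted p = 5.75e-06). Zfp42, the zinc finger gene Rex1, read 216, 296, 285, 268 and 283 and then 58, 51, 142, 142 and 156. All 3 fell without overlap. Zfp42 changed by -1.4 (SE 0.259, adjusted p = 0.00183; blocked adjusted p = 0.12; 0.0614 in a fit of only the groups compared) and by -0.91 in the arrays with high Eif2s3y. The other members of the list that fell were Dppa5a, Fbxo15, Tet2, Pecam1, Mkrn1, Tex19.1, Trap1a and Sox15. Klf5, a Krüppel-like factor of the naive state, was the 1 member that rose, from 608 to 874 up to 748 to 1674. Its arrays overlapped, and the change of 0.67 (SE 0.172, adjusted p = 0.0257; blocked adjusted p = 0.246) was lost with the mean of all probe sets (0.313), in a fit of only the groups compared (0.147), among the arrays with high Eif2s3y (0.0697) and without null day 2 replicate 2 (0.0766) or 5 (0.0676) or null day 4 replicate 2 (0.0543), 3 (0.0843) or 4 (0.0656). Klf2 read 103, 210, 275, 410 and 450 and then 6, 6, 140, 159 and 141, and did not pass (-2.36, SE 0.735, adjusted p = 0.0809, or 0.0484 with the Eif2s3y set as a block). In that gene the middle and low arrays went to the floor and the high ones did not.

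Outside that list the largest falls without overlap were of Gtsf1l, Epas1, Morc1, Gadd45g, Zfp936 and Lncenc1. Absence of overlap was a condition for choosing these, and likewise for Ooep, Dppa3, Nr0b1 and Gbx2 among the largest falls. Gtsf1l, a relative of a germline factor that protects against transposons, read 62, 186, 139, 137 and 120 at day 2 and 11, 12, 12, 8 and 12 at day 4 (-3.08, SE 0.224, adjusted p = 3.47e-08). Morc1, a germline silencing factor, read 69, 110, 153, 221 and 179 and then 6, 6, 22, 15 and 39 (-2.93, SE 0.357, adjusted p = 2.44e-05). Lncenc1, a noncoding RNA of naive ES cells, read 168, 255, 386, 431 and 318 and then 16, 19, 72, 36 and 108 (-2.78, SE 0.362, adjusted p = 4.87e-05; 0.0621 among the arrays with high Eif2s3y alone). The level on day 4 was lowest on replicates 1 and 2 for Morc1 and Lncenc1 and even across replicates for Gtsf1l. Epas1, a hypoxia-inducible factor, changed by -2.94 (SE 0.386, adjusted p = 5.42e-05; blocked adjusted p = 0.0571). Gadd45g, a stress-induced growth arrest gene, went from 217 to 405 down to 7 to 89 (-2.89, SE 0.643, adjusted p = 0.00956; blocked adjusted p = 0.167; 0.0507 in a fit of only the groups compared). Zfp936 went from 310 to 689 down to 10 to 214 (-2.82, SE 0.594, adjusted p = 0.00587; blocked adjusted p = 0.138; 0.162 in a fit of only the groups compared). Both fell by less in the arrays with high Eif2s3y, -1.63 and -1.69, than in the low ones, -4.66 and -4.63.

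Of 27 measured germ cell genes, 4 fell and 0 rose, beside 2.1% and 2.25% of all genes: Dppa3, Tdrd12, Mael and Tfap2c. Tdrd12, a tudor protein of the piRNA pathway, read 95, 271, 141, 196 and 173 at day 2 and 61, 14, 42, 15 and 35 at day 4 (-2.35, SE 0.316, adjusted p = 7.19e-05; blocked adjusted p = 0.149; 0.0535 among the arrays with high Eif2s3y). Mael, maelstrom of the same pathway, read 130, 140, 216, 166 and 175 and then 22, 21, 97, 71 and 101 (-1.59, SE 0.33, adjusted p = 0.00503; blocked adjusted p = 0.117). Tfap2c, a transcription factor of germ cells and trophoblast, read 169, 164, 85, 124 and 161 and then 53, 78, 53, 50 and 49 (-1.23, SE 0.244, adjusted p = 0.00356; blocked adjusted p = 0.0565). The days did not overlap for any of the 3, and with the replicate block 0 of the 27 passed. Mael also did not pass in a fit of only the groups compared (0.119) or among the arrays with high Eif2s3y (0.0628, change -1.02), nor did Tfap2c in the latter (0.0927).

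Of 17 measured genes that write, remove or act on DNA methylation, 4 fell (Dnmt3a, Tet1, Tet2 and Gadd45a), beside 2.1% of all genes, and 1 rose (Gadd45b), beside 2.25%. Dnmt3a, a de novo methyltransferase, read 2874, 3739, 1551, 1916 and 2175 at day 2 and 1326, 587, 374, 633 and 600 at day 4. The days did not overlap (-1.85, SE 0.354, 3.61-fold, adjusted p = 0.00259), the mean of its probe sets gave -1.2, and Fl/Fl changed by -3.31 to 98 and 137. Dnmt3l, its inactive cofactor, read 1938, 2837, 3890, 3862 and 3920 and then 122, 39, 1492, 1757 and 1599. All day 4 arrays were lower, but replicates 3 to 5 kept over 10 times the level of replicates 1 and 2, and the change of -2.76 (SE 0.87) did not pass (adjusted p = 0.0852). It was -1.27 in the high set, -4.49 in the middle set and -5.5 in the low set, against -4.73 in Fl/Fl. Dnmt3b stayed between 10191 and 13747 at day 2 and 8377 and 10553 at day 4 (-0.36, adjusted p = 0.574), and passed with a blocked adjusted p = 0.0297 and with the Eif2s3y set as a block (0.0354). Tet1, a dioxygenase that oxidizes methylcytosine, fell from 1471 to 2072 down to 677 to 1258 (-0.94, SE 0.161, adjusted p = 0.000981). Gadd45b, a stress gene linked to demethylation, read 61, 61, 74, 52 and 78 and then 222, 355, 192, 135 and 151, without overlap (1.56; blocked adjusted p = 0.0695), and the mean of its probe sets gave 0.89. The calls of Tet2 (-0.8, adjusted p = 0.0388; blocked adjusted p = 0.232; 0.104 with the Eif2s3y set as a block) and Gadd45a (-0.74, adjusted p = 0.0457; blocked adjusted p = 0.0727) were lost without most single arrays, and the count that fell was 2 without null day 2 replicate 2, 4 or 5 or null day 4 replicate 1 or 3.

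**Figure D3:**
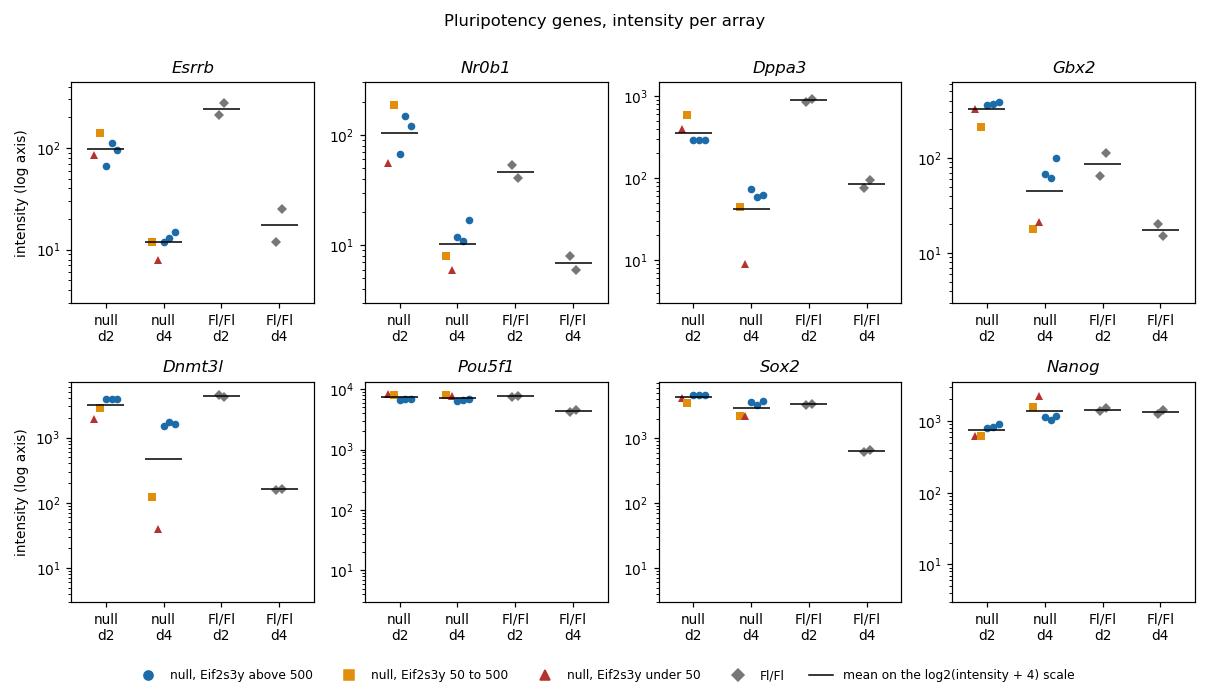
Intensity on a log axis of 8 pluripotency genes per array, with symbols and lines as in the plot of streak genes. Esrrb, Nr0b1, Dppa3 and Gbx2 fell in null cells at day 4, Dnmt3l splits by array set between 39 and 1757, and Pou5f1, Sox2 and Nanog were at 1037 or more on all null day 4 arrays.

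The core pluripotency factors Pou5f1, Sox2 and Nanog were well above the floor at day 2 and at day 4. Pou5f1 (Oct4) read 8352, 8128, 6575, 6991 and 6915 at day 2 and 8154, 7584, 6254, 6556 and 6950 at day 4. The days overlapped fully and the change was -0.06 (SE 0.239, adjusted p = 1.0), while Fl/Fl went from 7441 and 7848 to 4243 and 4592. Sox2, its partner, read 4150, 3521, 4602, 4582 and 4684 and then 2218, 2182, 3662, 3309 and 3732 (-0.54, SE 0.218, adjusted p = 0.204, or 0.02 with the Eif2s3y set as a block). Nanog, at a mean of 3234.0 in null cells at day 0, read 614, 611, 794, 836 and 900 and then 1560, 2212, 1153, 1037 and 1169. Every day 4 array of Nanog was higher than every day 2 array, most in the arrays with less Eif2s3y (changes of 0.41, 1.35 and 1.84), but the change of 0.88 (SE 0.32) did not pass (adjusted p = 0.152). Of 23 measured core factors, 3 fell and 0 rose, beside 2.1% and 2.25% of all genes: Fgf4, Zfp281 and Phc1. Zfp281, a zinc finger partner of Nanog, fell on every array by 0.52 on the log2 scale (SE 0.106, adjusted p = 0.00445), and 1 gene of the list fell with the replicate block. With the Eif2s3y set as a block 7 fell, and 9 among the arrays with high Eif2s3y alone.

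Markers of the primed epiblast were read well above the floor at day 2. Fgf5, the classic marker of this state, read 588, 611, 414, 383 and 347 at day 2 and 824, 786, 807, 630 and 723 at day 4, after 17.3 ± 6.5 (SD, n = 3) at day 0. All day 4 arrays were higher, but the change of 0.71 (SE 0.391) did not pass (adjusted p = 0.405, or 0.0189 with the Eif2s3y set as a block). Otx2, a homeobox gene of this state, read 1781, 1520, 1630, 1714 and 1582 and then 2332, 2051, 1053, 1259 and 1286, up in the first 2 replicates and down in the other 3 (-0.11, SE 0.373, adjusted p = 1.0). Pou3f1 (Oct6) read 2007 to 2693 and then 1392 to 2147 (-0.44, adjusted p = 0.435). Of 28 measured formative and primed genes, 1 rose (Krt18) and 4 fell, beside 2.25% and 2.1% of all genes: Dnmt3a, Foxd3, Lef1 and Tcf15. With the Eif2s3y set as a block 6 rose and 6 fell, with the replicate block 3 rose and 3 fell, 4 rose among the arrays with high Eif2s3y alone, and 2 rose without null day 4 replicate 4. Foxd3, a forkhead repressor, went from 68 to 86 down to 30 to 52 (-0.86, SE 0.123, adjusted p = 0.000161; blocked adjusted p = 0.067; 0.0659 among the arrays with high Eif2s3y). Tcf15, a marker of cells leaving the naive state, read 519, 520, 748, 808 and 727 and then 134, 93, 370, 327 and 400 (-1.5, SE 0.317, adjusted p = 0.00589; blocked adjusted p = 0.0926; 0.109 in a fit of only the groups compared). Both fell without overlap.

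Few neural genes passed. Of 32 measured, Nes and Gli3 rose and Sox1 fell, beside 2.25% and 2.1% of all genes. Sox1, the earliest neural marker, read 23, 20, 44, 82 and 72 at day 2 and 10, 9, 10, 16 and 14 at day 4, after 13.0 ± 2.6 (SD, n = 3) at day 0. It fell on every array from a level that was higher at day 2 in replicates 3 to 5 (-1.56, SE 0.251, adjusted p = 0.000519; blocked adjusted p = 0.0718; 0.0643 in a fit of only the groups compared), the mean of its probe sets gave -0.78, and Fl/Fl read 9 to 12 throughout. Nes, the intermediate filament nestin, read 124, 88, 106, 82 and 68 and then 381, 476, 265, 166 and 213 (1.57, SE 0.284, adjusted p = 0.00161; blocked adjusted p = 0.0565; 0.0753 among the arrays with high Eif2s3y). Gli3, a hedgehog transcription factor, went from 142 to 190 up to 287 to 406 (1.07, SE 0.15, adjusted p = 0.000114). Pax6, a neural homeobox gene, read 6 or 7 at day 2 and 12, 23, 9, 6 and 7 at day 4 and did not pass (0.5, adjusted p = 0.101).

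Some antigen presentation and sterol genes rose. Of 22 measured interferon and MHC class I genes, 4 rose (Tapbp, B2m, H2-D1 and Irf1) and 1 fell (Ifitm1), beside 2.25% and 2.1% of all genes. The count that rose was 2 under the replicate block and in a fit of only the groups compared. Tapbp, the loading factor tapasin, read 125, 206, 193, 176 and 154 at day 2 and 1280, 1329, 668, 562 and 594 at day 4 (2.26, SE 0.229, 4.81-fold, adjusted p = 3.04e-06). B2m, the light chain of MHC class I, read 290, 300, 377, 368 and 312 and then 611, 706, 865, 834 and 754 (1.18, SE 0.144, adjusted p = 2.42e-05). H2-D1, a class I heavy chain whose probes may also read near-identical family members, rose by 0.97 (SE 0.226, adjusted p = 0.0132; blocked adjusted p = 0.0565). None of these 3 genes overlapped between the days. The call of H2-D1 was lost in a fit of only the groups compared (0.0751), and the mean of its probe sets gave 0.36. Ifitm1, an interferon-induced membrane protein high in ES cells, read 2328, 3476, 2169, 2586 and 2481 and then 549, 628, 874, 935 and 846 (-1.77, SE 0.248, adjusted p = 0.000115).

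Of 17 measured cholesterol synthesis genes, 4 rose and 0 fell, Cyp51, Msmo1, Sqle and Idi1, beside 2.25% of all genes that rose, with a median change of 0.39. With the Eif2s3y set as a block 7 rose, and 1 fell among the arrays with high Eif2s3y alone. Cyp51, a sterol demethylase, read 338, 373, 349, 326 and 322 at day 2 and 649, 616, 689, 491 and 601 at day 4 (0.82, SE 0.165, adjusted p = 0.00403; 0.0578 among the arrays with high Eif2s3y). Sqle, squalene epoxidase, went from 726 to 918 up to 1161 to 1385 (0.56, SE 0.108, adjusted p = 0.00284). Msmo1 rose by 0.78 (SE 0.141, adjusted p = 0.00154; blocked adjusted p = 0.0934; 0.0572 among the arrays with high Eif2s3y), and the mean of its probe sets gave 0.42. Idi1 rose by 0.58 (SE 0.14, adjusted p = 0.0179; blocked adjusted p = 0.0627; 0.0591 among the arrays with high Eif2s3y), a call lost without null day 4 replicate 1 (0.0511) or 2 (0.0593). All 4 had day 4 arrays above all day 2 arrays. Among 27 measured glycolysis and hypoxia genes the glucose transporter Slc2a3 rose, from 6357 to 7887 up to 10887 to 14610 (0.72, SE 0.084, adjusted p = 1.53e-05; blocked adjusted p = 0.0792; 0.0762 with the mean of its probe sets), and 0 fell. The median of that list went opposite ways in the array sets, -0.49 with high Eif2s3y against 0.4 in the middle and 0.36 in the low ones, and 7 of its genes fell when only the arrays with high Eif2s3y were compared.

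Among 30 measured imprinted genes, Plagl1 and Gnas rose and 0 fell, beside 2.25% and 2.1% of all genes. Plagl1, a growth-suppressing zinc finger gene, read 203, 213, 334, 202 and 230 at day 2 and 503, 784, 1094, 885 and 981 at day 4, without overlap (1.81, SE 0.277, adjusted p = 0.000307), and the mean of its probe sets gave 0.74. Gnas, which encodes a G protein subunit, rose by 0.59 (SE 0.139, adjusted p = 0.0153; blocked adjusted p = 0.169), a call lost in a fit of only the groups compared (0.0561), among the arrays with high Eif2s3y (0.152) and without null day 4 replicate 1 (0.0504) or 2 (0.0567), which left 1 gene. Ghr, the growth hormone receptor, and Mme, the surface peptidase neprilysin, belong to no list but were among the largest rises. Ghr read 6, 5, 6, 6 and 9 and then 47, 99, 115, 44 and 60 (2.8, SE 0.2, adjusted p = 3.28e-08; 1.39 with the mean of its probe sets). Mme read 57, 36, 88, 46 and 33 and then 239, 529, 420, 309 and 384 (2.79, SE 0.335, adjusted p = 2.04e-05). Absence of overlap was a condition for naming both, and also for naming Card10 and Anxa3. Card10, a signalling scaffold, rose by 2.74 (SE 0.404, adjusted p = 0.000209, blocked adjusted p = 0.0624, and 0.0777 among the arrays with high Eif2s3y). Anxa3, an annexin, rose by 2.57 (SE 0.32, adjusted p = 3.04e-05, blocked adjusted p = 0.0565).

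LIF response and adhesion genes moved in part. Of 21 measured LIF and STAT3 response genes, Socs3, Klf5 and Junb rose and Gbx2 fell, beside 2.25% and 2.1% of all genes. Socs3, the feedback inhibitor of STAT3, read 63, 33, 46, 36 and 38 at day 2 and 93, 159, 83, 90 and 103 at day 4, without overlap (1.21, SE 0.225, adjusted p = 0.00189; blocked adjusted p = 0.12; 0.193 with the mean of its probe sets). Junb, an AP-1 subunit, rose by 1.73 (SE 0.469, adjusted p = 0.0372, blocked adjusted p = 0.108), from 13 to 58 up to 93 to 215. Null means at day 0 were higher than at day 4, at 1851.3 for Socs3, 4585.3 for Klf5 and 310.3 for Junb. In Fl/Fl these genes changed by 1.51, 1.77 and 2.29 from day 2 to day 4. The count that rose was 0 with the replicate block, and 1 without null day 2 replicate 2 or 5 or null day 4 replicate 2, 3 or 4. Of 24 measured cadherin switch and EMT genes, Sparc, Itga5 and Mmp2 rose and 0 fell, beside the same shares of all genes. Sparc, a matrix protein also made by endoderm, read 1690, 1771, 1507, 1479 and 1377 and then 3655, 3777, 3380, 3286 and 2949, with no overlap (1.12, SE 0.166, adjusted p = 0.000222). Itga5, the fibronectin receptor subunit, rose by 0.88 (SE 0.21, adjusted p = 0.0156), a call lost without null day 2 replicate 5 (0.0512), with the mean of its probe sets (0.111) and among the arrays with high Eif2s3y (0.0792). Mmp2, a matrix protease, read 41, 45, 36, 42 and 50 and then 55, 44, 81, 84 and 94, with replicates 3 to 5 of day 4 highest and 1 day 4 array overlapping (0.65, adjusted p = 0.0218; blocked adjusted p = 0.221; 0.0804 with the Eif2s3y set as a block). Fn1, fibronectin itself, chosen after its values were seen, read 1417.6 ± 87.3 and 1157.4 ± 180.9 (SD, n = 5) in null against 1620.5 ± 115.3 and 8705.0 ± 288.5 (n = 2) in Fl/Fl.

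Hox genes and most other developmental regulators known as Polycomb targets did not pass. Of 32 measured Hox genes, 0 passed in either direction, with medians of -0.01 in null and 0.0 in Fl/Fl and a summed intensity of 316 to 361 at day 2 and 293 to 371 at day 4. Of 38 such other regulators, 1 rose and 1 fell, beside 2.25% and 2.1% of all genes. Nkx2-2, a neural homeobox gene, read 6, 5, 6, 6 and 6 and then 10, 24, 44, 13 and 21, all above day 2 (1.29, SE 0.358, adjusted p = 0.0413; blocked adjusted p = 0.138). Its call was lost without any single null array except day 4 replicates 1 and 4 (0.0684 to 0.128), and with a pseudocount of 16 (0.0764, change 0.75). Neurod1, a neural basic helix-loop-helix gene, fell by 1.43 on the log2 scale (SE 0.344, adjusted p = 0.0164; blocked adjusted p = 0.271; 0.101 with the Eif2s3y set as a block), by 0.63 in the arrays with high Eif2s3y, and not past the threshold without null day 4 replicate 1 (0.0534) or 2 (0.0604). In the endoderm list Sparc rose and the X-linked homeobox gene Rhox5 fell (-2.62, SE 0.443, adjusted p = 0.000876; blocked adjusted p = 0.172) of 31 measured, while Gata4 read 8 to 14, Gata6 6 to 8, Sox17 5 to 9 and Foxa2 4 or 5 on all 10 null arrays. Of 7 measured genes of the two-cell-like state, 0 passed, and of 20 retinoic acid genes the receptor Rarg fell (-0.65, SE 0.141, adjusted p = 0.00781).

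The Polycomb subunits themselves changed by small amounts. Of 28 measured, Rbbp7 and Yaf2 rose and Jarid2, Pcgf6 and Phc1 fell, beside 2.25% and 2.1% of all genes. Rbbp7, a histone-binding subunit of PRC2, went from 7012 to 8368 up to 8786 to 10925 (0.35, SE 0.0562, adjusted p = 0.000446; blocked adjusted p = 0.158), and Yaf2, a subunit of PRC1, rose by 0.77 (SE 0.125, adjusted p = 0.000522; blocked adjusted p = 0.0515). Phc1 fell by 0.41 on the log2 scale (SE 0.106, adjusted p = 0.0255; blocked adjusted p = 0.0629) and Pcgf6 by 0.42 (SE 0.109, adjusted p = 0.0289; blocked adjusted p = 0.0635). The count that fell was 0 without null day 2 replicate 2 or null day 4 replicate 2 or 3, and 1 without null day 2 replicate 1, 4 or 5 or null day 4 replicate 1 or 5. It was 1 after quantile normalization, 5 in a fit of only the groups compared and 8 with the Eif2s3y set as a block, and 1 rose with the replicate block. Ezh2, the methyltransferase of PRC2, read 1068 to 1315 and then 811 to 1069 and did not pass (-0.34, SE 0.199, adjusted p = 0.455, or 0.0186 with the Eif2s3y set as a block). Of 36 measured cell cycle genes, 0 passed in limma's fit, with a median change of -0.09, and 1 rose and 5 fell with the Eif2s3y set as a block. Of 24 p53 and stress genes, Gadd45a fell, a call lost without any single null array except day 2 replicate 3 (0.0536 to 0.11).

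**Figure D4:**
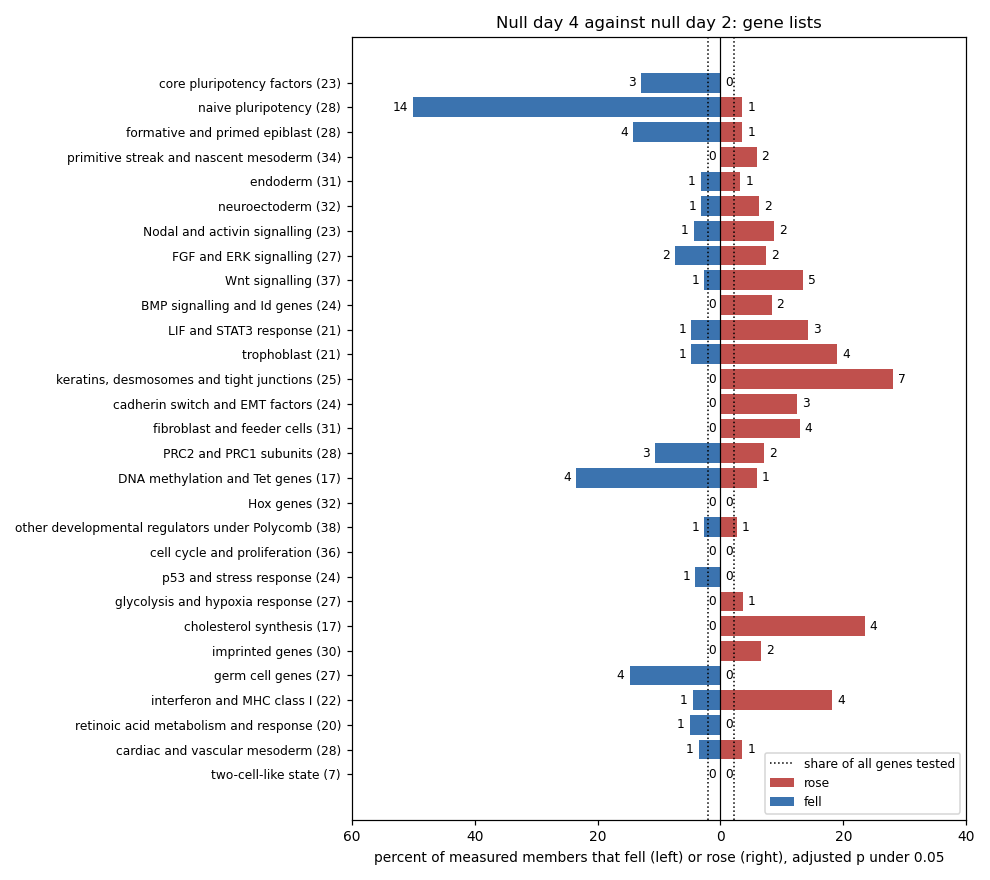
Percent of the measured members of each of 29 gene lists (number measured in brackets) that fell, to the left, or rose, to the right, in null cells from day 2 to day 4; bar labels are counts and dotted lines mark 2.1% and 2.25% of all genes. Naive pluripotency genes have the longest bar to the left, 14 of 28, and keratins, desmosomes and tight junctions the longest to the right, 7 of 25.

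Whether the null change differed from that of Fl/Fl was tested as the difference between the 2 changes. Of 18194 genes, 192 (1.06%) differed, 71 (0.39%) with a higher and 121 (0.665%) with a lower change in null. The split moved with single Fl/Fl arrays: 166 were higher and 87 lower without Fl/Fl day 2 replicate 2, 60 and 72 without Fl/Fl day 2 replicate 1, 44 and 90 without Fl/Fl day 4 replicate 1, and 41 and 123 without Fl/Fl day 4 replicate 2. In the streak list 5 of 34 had a lower change in null: Mixl1, Evx1, Cyp26a1, Cdx2 and Sp5. The difference was -7.41 for Mixl1 (SE 1.13, adjusted p = 0.00159). It was -4.05 for Evx1, a posterior streak homeobox gene that read 5 or 6 on all null arrays and 117 and 166 in Fl/Fl at day 4 (SE 0.622, adjusted p = 0.00162). Cyp26a1, which degrades retinoic acid, read 3 to 5 in null at both days and went from 4 and 5 to 490 and 703 in Fl/Fl. Its difference of -6.01 (SE 1.2, adjusted p = 0.0131) did not pass without Fl/Fl day 2 replicate 1 (0.0635) or day 4 replicate 2 (0.0631). Sp5 rose in both, to 7 to 93 in null and to 1248 and 1001 in Fl/Fl, with a difference of -3.87 (SE 0.801, adjusted p = 0.0164; blocked adjusted p = 0.121; 0.0599 in a fit of only the groups compared; 0.104 without Fl/Fl day 2 replicate 1 and 0.0881 without day 4 replicate 1). Cdx2 differed by -1.85 (SE 0.354, adjusted p = 0.0084), a call lost without Fl/Fl day 4 replicate 2 (0.0932) and with the mean of its probe sets (0.235). The differences of Lhx1 (-5.12, SE 1.42, adjusted p = 0.1) and Gsc (-3.55, SE 1.11, adjusted p = 0.162) did not pass. Their SEs pool the spread of all groups. Among these is null day 6, where Lhx1 was 1779.2 ± 1647.1 (SD) and Gsc 201.4 ± 206.2.

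Other genes went up further in Fl/Fl than in null. Tnfsf9, a ligand of the tumour necrosis factor family, was flat in null. It read 5 to 7 on all null arrays and 199 and 244 in Fl/Fl at day 4 (difference -4.47, SE 0.523, adjusted p = 0.000118). Mocs1, an enzyme of molybdenum cofactor synthesis, differed by -4.41 (SE 0.742, adjusted p = 0.00286), and the protocadherin Pcdh7 by -4.28 (SE 0.555, adjusted p = 0.000331; 0.0647 with the mean of its probe sets). Col5a1, a fibrillar collagen, read 57, 108, 78, 58 and 61 at day 4 in null and 1119 and 1139 in Fl/Fl, and differed by -3.82 (SE 0.607, adjusted p = 0.00199). Tnfsf9, Mocs1 and Pcdh7 were near the floor on all null arrays of both days. Col5a1 was above it, at 22 to 61 in null at day 2 and 57 to 108 at day 4, with overlapping days. Ghr, which rose in null, rose more in Fl/Fl, to 769 and 709 (difference -2.2, SE 0.375, adjusted p = 0.00328), and so did B2m (-1.24, SE 0.269, adjusted p = 0.0234), a call lost in 3 of 14 fits that left out 1 array (up to 0.114 without Fl/Fl day 2 replicate 1).

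In the other direction, several genes went down in Fl/Fl and went down less, were flat or went up in null cells. Enpp3, a surface phosphodiesterase, read 945, 974, 1372, 1472 and 1521 at day 2 and 677, 564, 907, 1037 and 1082 at day 4, where Fl/Fl went from 707 and 704 to 40 and 49 (difference 3.31, SE 0.555, adjusted p = 0.00279). Pdzd4 read 213 to 421 in null at day 4 and 14 and 21 in Fl/Fl (3.03, SE 0.443, adjusted p = 0.00106), and Cbr3, a carbonyl reductase, 143 to 340 against 10 and 9 (3.29, SE 0.594, adjusted p = 0.00503; blocked adjusted p = 0.127). For all 3 the null day 4 arrays lay above both Fl/Fl day 4 arrays. Within null cells Cbr3 fell by 1.22 on the log2 scale (adjusted p = 0.0285; blocked adjusted p = 0.329; 0.112 with the Eif2s3y set as a block) and Enpp3 did not pass (-0.57, adjusted p = 0.369; blocked adjusted p = 0.031). Ugt8a, a galactosyltransferase of glycolipids, was flat in null (0.0, SE 0.19) and fell from 138 and 106 to 20 and 17 in Fl/Fl (difference 2.48, SE 0.356, adjusted p = 0.000948; blocked adjusted p = 0.104). Gstm1, a glutathione transferase, read 383 to 738 in null and 191 and 184 in Fl/Fl at day 4 (2.63, SE 0.487, adjusted p = 0.0063), and Id3 differed by 2.53 (SE 0.508, adjusted p = 0.0135; blocked adjusted p = 0.132; 0.0569 without Fl/Fl day 2 replicate 1 and 0.0742 without day 4 replicate 1). The mean over all probe sets gave smaller differences, 1.85 for Enpp3, 1.51 for Pdzd4, 1.37 for Ugt8a and 1.53 for Gstm1, and -2.22 for Mocs1 and -1.59 for Pcdh7.

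Of 23 measured core factors, Phc1, Sox2 and Fgf4 had a higher change in null, and 0 had a lower one, beside 0.39% and 0.665% of all genes. Phc1, a PRC1 subunit, differed by 0.96 (SE 0.198, adjusted p = 0.0161), lost in 4 of 14 fits that left out 1 array (up to 0.0777 without Fl/Fl day 4 replicate 1). Sox2 went down in Fl/Fl to 623 and 654 while no null array at day 4 was under 2182 (difference 1.85, SE 0.408, adjusted p = 0.0259), a call lost without any single Fl/Fl array (0.0755 to 0.108). Fgf4 reached 5 and 9 in Fl/Fl and 45 to 320 in null (3.07, SE 0.714, adjusted p = 0.0377; blocked adjusted p = 0.246), lost in 11 of 14 fits that left out 1 array (up to 0.192). Sox3, a paralog of Sox2, differed by 1.82 (SE 0.423, adjusted p = 0.0374; blocked adjusted p = 0.246), lost in 9 of 14. Platr10, a noncoding RNA of pluripotent cells, differed by 2.58 (SE 0.619, adjusted p = 0.0457), lost in 13 of 14 (up to 0.298 without Fl/Fl day 4 replicate 1). Pou5f1 (0.73, SE 0.447, adjusted p = 0.67) and Nanog (0.98, SE 0.599, adjusted p = 0.67) did not differ past the threshold. In the list of keratins, desmosomes and tight junctions the difference passed for Dsc2 alone: it was -0.03 for Dsp (SE 0.693, adjusted p = 1.0), -1.11 for Krt19 (SE 0.521, adjusted p = 0.461) -0.84 for Krt18 (SE 0.559, adjusted p = 0.743) and -0.08 for Krt8 (SE 0.613, adjusted p = 1.0), and these SEs leave room for sizeable differences.

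**Figure D5:**
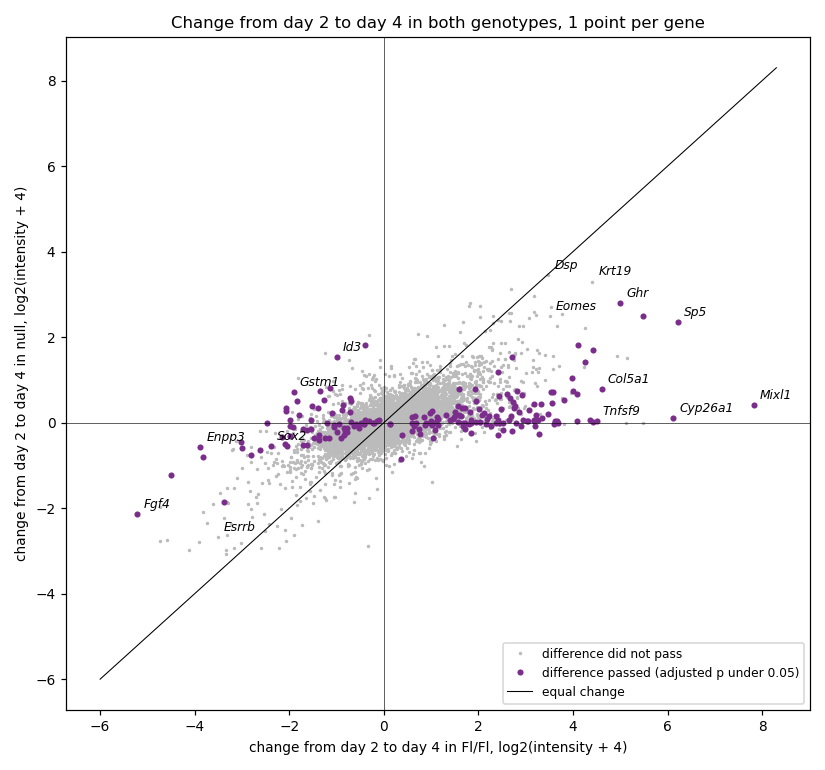
Change from day 2 to day 4 on the log2(intensity + 4) scale in Fl/Fl (horizontal) and null (vertical), 1 point per gene for 18194 genes, with the 192 genes whose difference passed in purple and the line of equal change. Mixl1 lies at 7.82 in Fl/Fl and 0.42 in null, far below the line, and Fgf4 at -5.21 and -2.14 above it, while Dsp, at 3.48 and 3.45, lies on it.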

How the data were processed

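RNA was measured on 30 Affymetrix arrays, 1 per sample, at days 0 to 8 of LIF withdrawal. The deposited values are linear intensities per probe set, rounded to whole numbers, with array means of 331.8 to 363.6; how the authors corrected, scaled and summarised the probes was not given in the sources used here. Of 45101 probe sets, 34958 name 1 gene, 932 several and 9211 none. The probe set with the highest mean over all arrays stood for each of 18194 genes. Depth has no counterpart on arrays, so the number of arrays limits precision.

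Group means of log2(intensity + 4) were fitted in limma 3.58.1 (R 4.3.3) using the 30 arrays together, which leaves 20 residual degrees of freedom. Tests were limma's moderated, two-sided tests with Benjamini-Hochberg adjustment over 18194 genes and a threshold of 0.05. The comparisons were null day 4 against null day 2, and the difference of that change from the Fl/Fl change; the fit was first tested on simulated data. The labels call arrays biological replicates, but nothing says that they came from separate cultures, so p-values measure a spread that may be technical. Null arrays were put into sets by Eif2s3y (above 500, 50 to 500, under 50). Same-numbered day 2 and day 4 arrays deviated together (correlations of 0.185 to 0.345 over 9097 genes), but this did not show pairing by number. Day 2 replicate 1 went better with day 4 replicate 2 (0.492) than with day 4 replicate 1 (0.327). Day 2 replicate 2 went better with day 4 replicate 1 (0.456) than with day 4 replicate 2 (0.185). Within the high set, unlike numbers gave 0.191 to 0.308 and equal numbers 0.201 to 0.345. The replicate block thus joined a low-set with a middle-set array under replicate 1 and under replicate 2. A blocked adjusted p is therefore not a test of arrays known to be paired.

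The members and the gene lists were chosen with earlier results of these data known. Genes are named if they are fixed lineage and pluripotency genes, the 10 largest rises or falls without overlap, up to 4 genes with the smallest adjusted p in a list, or the 8 largest differences between genotypes in each direction; list members that complete a count are named too. Promoters are RefSeq's. Alternatives were the pseudocount, normalization, filter, probe set rule, arrays fitted, variance moderation, blocks and each array left out.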

Additional observations from a re-analysis of the deposited data

Results flagged for a closer look

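Of 226 groups of 5 null arrays examined (the named genes at each day, where at least 1 array read 50 or more), 12 held 1 array far from the other 4. Groups of different genes share the same arrays and are not independent. The part of the Eif2s3y sets in these outliers was not tested. Day 4 replicate 2 was low for Dppa3 (9) and Rhox5 (90) and high for Tfap2c (78) and Col4a1 (889). Day 2 replicate 2 was low for Gbx2 (209), Junb (13) and Slc2a3 (6357). Day 2 replicate 3 was low for Smad1 (222) and high for Plagl1 (334), and day 2 replicate 1 was high for Ugt8a (268). At day 4, replicate 1 was high for Sqle (1385) and replicate 5 was low for Bbc3 (342).

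The change from day 2 to day 4 differed between null and Fl/Fl in limma's test of the difference for the genes named here. It was higher in null for Enpp3 (3.31), Cbr3 (3.29), Fgf4 (3.07), Pdzd4 (3.03), Gstm1 (2.63), Platr10 (2.58), Id3 (2.53) and Ugt8a (2.48). It was lower for Mixl1 (-7.41), Cyp26a1 (-6.01), Tnfsf9 (-4.47), Mocs1 (-4.41), Pcdh7 (-4.28), Evx1 (-4.05), Sp5 (-3.87) and Col5a1 (-3.82), all on the log2 scale.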

How the results depend on the processing

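The count of genes that changed in null cells, 792, became 366 with the replicate block and 1423 with the Eif2s3y set as a block, and was 575 to 786 when 1 array was left out. It was 695 to 882 under the other settings, which were both pseudocounts, both normalizations, the filter, the mean of probe sets, the groups compared alone, the robust trend and the arrays with high Eif2s3y. The count of differences from Fl/Fl, 192, became 574 in a fit of only the groups compared, 407 with the replicate block and 1086 with the Eif2s3y set as a block. It was 132 to 269 when 1 array was left out, lowest without Fl/Fl day 2 replicate 1 and highest without null day 4 replicate 2. The cause of these shifts was not tested. Block fits used only the groups compared, for which fits without a block gave 695 and 574 genes. No named result reversed. Among 151 named genes, 52 lost the call in null cells under at least 1 setting other than leaving out an array, 30 gained it, and 16 lost it when 1 array was left out. The replicate block changed no call other than those printed with it or counted here. The arrays' number, 2 per day in Fl/Fl, and intensities at the floor limit the differences between genotypes.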
